A study of Mus musculus with 4 samples.

Results

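The 10 genes described here encode the machinery by which a cell takes up retinol (vitamin A), turns it into retinoic acid, carries, senses and removes it. They were chosen by symbol, with earlier results of these data known. They are the transporter Stra6, the retinoic acid receptors Rara, Rarb and Rarg, and the retinoid X receptors Rxra, Rxrb and Rxrg. The others are the binding protein Crabp2 and the enzymes Cyp26b1 and Aldh1a2. All 10 were found among the 50600 genes of the deposited tables. The data are 4 RNA libraries of mouse regulatory T cells, primary cells of the C57BL/6NJ strain with no stated genotype change or treatment, each from a biosample of its own under 1 shared donor record. The sex was not collected and the age is given as unknown, the labels link a CD4+ T cell differentiation protocol, and the headers of the count tables name the aligned files with the words activated and 48h. All libraries form 1 group, so the data give levels and their spread between libraries, and no condition or other cell type is set against them. Because the labels do not say which cultures or animals the biosamples came from, the p-values measure only the spread between these samples, which may be technical in part.

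Retinol reaches cells on a carrier protein in blood, and STRA6 is the membrane receptor that passes it inside. Dehydrogenases oxidise it first to retinal and then to retinoic acid, which the cytosolic carrier CRABP2 hands to nuclear receptors and which CYP26 enzymes degrade. A retinoic acid receptor (RAR) pairs with a retinoid X receptor (RXR) on DNA, and RXRs also partner the receptors for vitamin D, oxysterols, thyroid hormone and fatty acids. In CD4+ T cells retinoic acid is known for favouring Foxp3 induction together with transforming growth factor beta and for inducing gut-homing receptors.

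The libraries held 43821767 to 73819468 counts. The T cell and regulatory T markers Foxp3, Il2ra, Ctla4, Cd3e, Cd4 and Trac were all abundant, with a summed level of 4022 to 4125 TPM per library and Foxp3 at 289 ± 23.5. TPM is the usual transcript abundance unit, the count divided by the summed exon length of the gene and scaled so that every library has the same total. Values are the mean ± SD of 4 libraries (n = 4) unless stated. Of the markers of other cells, 1 of 6 was expressed for B cells, 1 of 6 for dendritic cells, 2 of 6 for macrophages and monocytes, 1 of 6 for stromal and endothelial cells and 0 of 5 for epithelial cells. The expressed ones were Cd79b at 3.11 ± 0.466, Zbtb46 at 2.46 ± 0.248, Cd68 at 4.23 ± 0.990, Adgre1 at 1.30 ± 0.328 and Pdpn at 23.4 ± 2.30 TPM. Among the defining markers, Lyz2 had 0 counts in every library, Col1a1 was at 0.120 ± 0.0892 and Epcam at 0.727 ± 0.310 TPM. The sex-linked Xist stood at 172, 145, 0.255 and 0.367 TPM in replicates 1 to 4, while the Y-linked Ddx3y stood at 0.152, 0.0781, 45.1 and 45.0 and Eif2s3y at 0.0761, 0.0836, 48.3 and 57.7. Replicates 1 and 2 thus carried the transcripts of female cells and replicates 3 and 4 those of male cells, so more than 1 animal lies under the shared donor record, which the labels do not state. In such bulk samples, fewer cells that use a gene and less of its RNA per cell cannot be told apart.

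Of the 10 retinoid genes, 7 were expressed, meaning that no library fell below a TPM of 1, and 3 were at or near 0. By the same rule 47.2% of the 21764 protein-coding genes were expressed, and the 10 genes are too few to read as a higher share. Their order from the top was Stra6, Rxra, Rxrb, Rara, Crabp2, Rarg and Aldh1a2, followed by Cyp26b1, Rarb and Rxrg. The gaps were large between Stra6 and the receptors, between Rara and Crabp2 and between Rarg and Aldh1a2, where the ranges of the neighbours did not overlap.

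**Figure D1:**
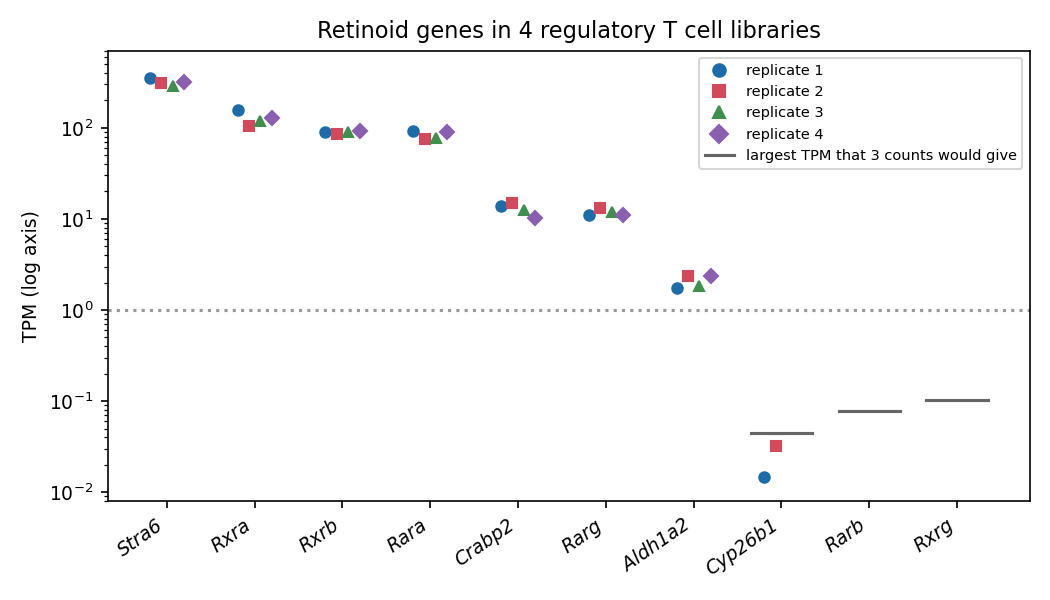
TPM of the 10 retinoid genes (log axis), with 1 point per library and replicates 1 to 4 shown by colour and shape. Bars mark, for the 3 genes with a library at 0 counts, the largest TPM that 3 counts would give, and the dotted line is a TPM of 1. Stra6 lies between 285 and 350, and Rarb and Rxrg have no point because all 4 libraries had 0 counts.

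Stra6, the retinol receptor of the cell membrane (ENSMUSG00000032327.14, mm10 chromosome 9, 58063788 to 58153996, plus strand, 24 exon blocks), was the most abundant of the 10 genes. It stood at 350, 307, 285 and 320 TPM in replicates 1 to 4, from 25769, 30820, 35947 and 28106 counts. No library was far from the rest, and the mean of 315 ± 27.3 ranked 535 among the 21764 protein-coding genes, above 97.5% of them. The 3 protein-coding genes closest to it in log2(TPM + 1) over the 4 libraries were the checkpoint receptor Pdcd1 at 315 ± 16.1, the mitotic kinase Plk1 at 317 ± 20.7 and Dlst, a subunit of the oxoglutarate dehydrogenase complex, at 312 ± 13.6 TPM. Their root mean square differences from Stra6 were 0.06, 0.07 and 0.07 on that log2 scale. The 6 stromal and endothelial markers summed to 20.7 to 26.2 TPM per library, nearly all of it Pdpn, and the 5 epithelial markers to 1.36 to 2.68. The part of such cells in the Stra6 level was not tested.

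The proteins that would handle retinol beyond its entry were uneven. Of 12 genes of retinol binding and storage, 2 were expressed and 8 had 0 counts in all 4 libraries. Fabp5, a fatty acid binding protein that also carries retinoic acid, was at 104 ± 4.11 TPM, and Dgat1, which can esterify retinol, was at 16.8 ± 1.54. Rbp7, a cellular retinol binding protein, was at 0.0161 ± 0.0322. Lrat, the main retinol esterifying enzyme, and Stra6l, a second membrane receptor for the retinol carrier, had 0 counts, where 3 counts would give at most 0.0444 and 0.0248 TPM.

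Crabp2, which carries retinoic acid to the nucleus (ENSMUSG00000004885.5, mm10 chromosome 3, 87948666 to 87953376, plus strand, 4 exon blocks), was expressed at a low level. It stood at 14.0, 15.0, 12.4 and 10.3 TPM in replicates 1 to 4, lowest in replicate 4. With 206 to 354 counts per library, counting error alone gives a coefficient of variation of 5.94%, against an observed 15.6%. Crabp1, its close relative, had 0 counts in every library. Crabp2 lay below Fabp5 in each library, at a mean of 12.9 ± 2.01 TPM.

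Aldh1a2, the enzyme that makes retinoic acid from retinal (ENSMUSG00000013584.5, mm10 chromosome 9, 71215789 to 71296243, plus strand, 14 exon blocks), was just above the expression threshold. It stood at 1.75, 2.36, 1.84 and 2.37 TPM, from 50, 92, 90 and 81 counts in replicates 1 to 4. Replicates 2 and 4 were alike and above the other two, although counting error alone gives a coefficient of variation of 11.3% at this depth against an observed 16%. Its relatives were lower still, with Aldh1a3 at 0.0469 ± 0.0109 TPM and Aldh1a1 at 0 counts, where 3 counts would give at most 0.116 TPM. The level of Aldh1a2, 2.08 ± 0.333 TPM, was near the summed level of the 6 dendritic cell markers, a cell type known to make retinoic acid, which was 2.40 to 2.91 TPM per library. Almost all of that sum was Zbtb46, while Clec9a and Siglech had 0 counts and Flt3 was at 0.0726 ± 0.0586, and the part of such cells in the Aldh1a2 level was not tested.

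Some genes for enzymes that act between retinol and retinal were expressed and others were not, and their levels do not give the direction of the reaction. Of 21 genes for the synthesis of retinal and retinoic acid, Aldh1a2 not counted, 9 were expressed. The most abundant were the alcohol dehydrogenase Adh5 at 104 ± 4.27 TPM and the retinol dehydrogenase Rdh11 at 94.2 ± 3.28. The retinal reductase Dhrs4 followed at 59.4 ± 5.55, and Rdh14 at 18.0 ± 1.48. Rdh10, the retinol dehydrogenase of embryonic retinoic acid synthesis, was at 11.6 ± 1.11. Each of these 5 lay above Aldh1a2 in all 4 libraries, as levels per exon length and not as enzyme activities.

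Cyp26b1, an enzyme that degrades retinoic acid (ENSMUSG00000063415.12, mm10 chromosome 6, 84571414 to 84593908, minus strand, 9 exon blocks), was not distinguishable from absence. It had 1, 3, 0 and 0 counts in replicates 1 to 4, and 3 counts would give at most 0.0444 TPM. None of the 3 other genes of retinoic acid removal was expressed. Cyp26a1 had 30, 9, 21 and 8 counts, or 1.34, 0.294, 0.547 and 0.300 TPM, highest in replicate 1. Cyp26c1 was at 0.0453 ± 0.0906 TPM and Cyp2c39 had 0 counts.

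Among the retinoic acid receptors, Rara dominated. Rara, RAR alpha (ENSMUSG00000037992.16, mm10 chromosome 11, 98927818 to 98974942, plus strand, 14 exon blocks), stood at 92.2, 76.1, 77.7 and 88.8 TPM in replicates 1 to 4. Replicates 1 and 4 were the higher pair, and the mean was 83.7 ± 8.0. Rarg, RAR gamma (ENSMUSG00000001288.14, mm10 chromosome 15, 102234938 to 102257517, minus strand, 14 exon blocks), stood at 11.1, 13.2, 11.8 and 11.1 TPM, with replicate 2 highest and a mean of 11.8 ± 0.992. Rarb, RAR beta (ENSMUSG00000017491.8, mm10 chromosome 14, 16430842 to 16575472, minus strand, 8 exon blocks), had 0 counts in all 4 libraries, where 3 counts would give at most 0.0783 TPM. Rara thus held 89.2%, 85.2%, 86.8% and 88.9% of the RAR sum, a mean of 87.5 ± 1.89%. The 3 protein-coding genes closest to Rara in log2(TPM + 1) over the 4 libraries were the chromatin remodelling subunit Smarcd1, the interleukin 12 receptor chain Il12rb1 and Heg1, each with a root mean square difference of 0.04.

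The retinoid X receptors were divided between Rxra and Rxrb. Rxra, RXR alpha (ENSMUSG00000015846.14, mm10 chromosome 2, 27676440 to 27762957, plus strand, 14 exon blocks), stood at 157, 104, 118 and 127 TPM in replicates 1 to 4, highest in replicate 1 and lowest in replicate 2, with a mean of 126 ± 22.3. Rxrb, RXR beta (ENSMUSG00000039656.16, mm10 chromosome 17, 34031812 to 34038393, plus strand, 7 exon blocks), stood at 90.6, 84.9, 89.0 and 91.2 TPM, a mean of 88.9 ± 2.85. Rxrg, RXR gamma (ENSMUSG00000015843.10, mm10 chromosome 1, 167598384 to 167639623, plus strand, 11 exon blocks), had 0 counts in all libraries, where 3 counts would give at most 0.103 TPM. The coefficient of variation was 17.6% for Rxra, higher than in 87.4% of the expressed genes, and 3.20% for Rxrb, higher than in 13.9%. Counting error alone would give 0.943% and 1.35%. The observed value for Rxra was 9.91% without replicate 1, and 15.1% to 21.6% without replicate 2, 3 or 4. For Rxrb it was 1.27% without replicate 2, and 3.35% to 3.92% without replicate 1, 3 or 4. Leaving out the most distant library tends to lower such a value. The difference in variation between these genes was not tested.

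RXR transcripts exceeded RAR transcripts in every library. The summed RXR level was 247, 189, 207 and 218 TPM and the summed RAR level 103, 89.3, 89.5 and 99.9 TPM in replicates 1 to 4. Their ratio was 2.39, 2.11, 2.31 and 2.18, a mean of 2.25 ± 0.126. Rxra made up 63.3%, 55.0%, 57.0% and 58.1% of the RXR sum, a mean of 58.4 ± 3.55%, with replicate 1 highest. This share depends on gene length: by the length of the principal transcript, an alternative chosen after seeing the data, it was 52.6 ± 3.66%, and the Rxra to Rxrb ratio in replicate 2 was 0.967 in place of 1.22.

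**Figure D2:**
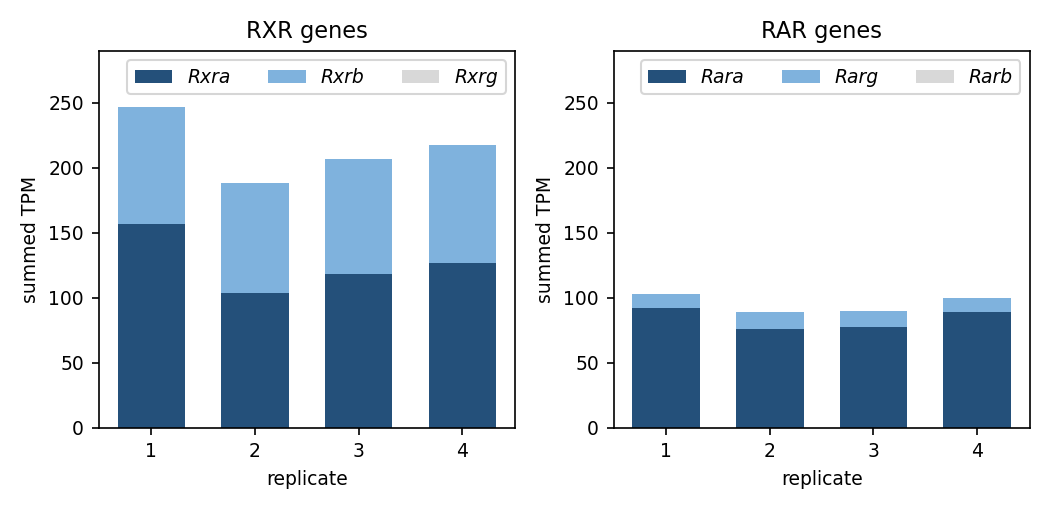
Stacked TPM of the RXR genes (left) and RAR genes (right) in replicates 1 to 4, on the same linear axis from 0. The RXR sum lies between 189 and 247 and the RAR sum between 89.3 and 103, while Rxrg and Rarb add nothing visible because both had 0 counts.

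Neighbours in the order of levels were compared within each library for the 6 pairs with counts in all libraries. Stra6 was 2.52 times Rxra, a log2 ratio of 1.33 ± 0.17, and higher in 4 of 4 libraries. Rxra was 1.4 times Rxrb, also in 4 of 4 libraries, by a log2 ratio of 0.49 ± 0.21. Rxrb and Rara differed by a log2 ratio of 0.09 ± 0.10 with overlapping ranges, and Crabp2 and Rarg by 0.12 ± 0.18 with overlapping ranges, so neither pair differed beyond its spread. Rara was 6.52 times Crabp2 and Rarg 5.73 times Aldh1a2, each in 4 of 4 libraries. A two-sided exact permutation test that flips signs has 16 patterns over 4 libraries and cannot reach 0.05, and the 4 pairs with no overlap had the smallest p it allows, 0.188 after Benjamini-Hochberg adjustment. By principal transcript length the ranges of Rxra and Rxrb overlapped, with a log2 ratio of 0.15 ± 0.21, and those of Rxrb and Rara did not, with 0.22 ± 0.10.

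Rarb and Cyp26a1 are textbook direct targets of retinoic acid, and the bases before their start sites are shown because both carry the classical RAR and RXR recognition element while their transcripts were absent or scarce here. The element is a direct repeat with 5 bases between its copies (DR5). Each copy could read AGGTCA, or differ from it at the first position as GGGTCA does, at the third position as AGTTCA does, or at both as in GGTTCA. It was searched on both strands in the 250 bases before each start site listed by RefSeq on GRCm38.p6. Capitals mark the DR5 element, which lay 53 to 37 bases before the start of Rarb (chr14:16575477-16575726, minus strand) and 32 to 16 bases before that of Cyp26a1 (chr19:37697558-37697807, plus strand). The window of Stra6 (chr9:58128838-58129087, plus strand), its first listed start, is given beside them as that of the most abundant retinoid gene. It holds no copy of the repeated element, so it has no capitals. All windows shown were picked with the levels known, so they do not show how the element goes with expression.
Rarb: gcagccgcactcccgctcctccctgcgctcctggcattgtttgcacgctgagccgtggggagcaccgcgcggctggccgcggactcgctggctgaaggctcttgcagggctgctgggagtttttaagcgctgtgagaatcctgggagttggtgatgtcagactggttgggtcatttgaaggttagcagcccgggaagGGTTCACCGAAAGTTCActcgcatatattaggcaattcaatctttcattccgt
Cyp26a1: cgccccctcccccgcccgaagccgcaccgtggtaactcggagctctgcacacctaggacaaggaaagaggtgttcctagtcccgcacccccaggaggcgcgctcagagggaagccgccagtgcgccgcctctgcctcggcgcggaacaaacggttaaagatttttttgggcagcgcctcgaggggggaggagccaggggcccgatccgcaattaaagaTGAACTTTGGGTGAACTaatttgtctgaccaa
Stra6: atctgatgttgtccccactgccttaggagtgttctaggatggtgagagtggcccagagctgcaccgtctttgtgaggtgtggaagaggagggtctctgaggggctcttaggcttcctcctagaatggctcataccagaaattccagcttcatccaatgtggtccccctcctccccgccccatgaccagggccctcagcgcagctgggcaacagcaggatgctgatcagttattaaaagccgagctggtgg
Such a DR5 stood in 29 of 32851 listed windows, or 0.0883%. Of the 10 retinoid genes 9 had an entry, with 19 start sites, and Rarb was the only one with a DR5. None had the same repeat with a spacer of 1 base, which 0.164% of windows held, or of 2 bases, which 0.174% held. A match describes letters only and not a bound site, and more distant elements were not searched.

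The transcripts known to respond to retinoic acid were mixed in level. Of 16 such genes in the list, 6 were expressed (37.5%, against 47.2% of all protein-coding genes) and 4 had 0 counts. No member is in this list, so Stra6 and Rarb are not counted here. The integrin chains Itgb7 and Itga4, which form the gut-homing integrin, stood at 131 ± 8.56 and 24.8 ± 1.82 TPM, the coregulator Nrip1 at 31.8 ± 0.555 and the ectoenzyme Cd38 at 16.1 ± 0.715. Dhrs3, a retinal reductase induced by retinoic acid, was at 0.918 ± 0.145, below the threshold in 3 of 4 libraries. The gut-homing chemokine receptor Ccr9 had counts in replicate 4 only, at 0.0259 TPM, and Stra8, the target that licenses meiosis, had none. Several of these genes have other known regulators in T cells, and their levels are given as a description.

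Partners and cofactors of the receptors were mostly expressed. Of 13 receptors that pair with RXR, 8 were expressed, led by the early response factor Nr4a1 at 738 ± 69.0 TPM, the oxysterol receptor Nr1h2 at 69.6 ± 5.88, Ppard at 45.2 ± 3.18 and the vitamin D receptor Vdr at 25.3 ± 4.18. All 16 coregulators were expressed, led by the methyltransferase Carm1 at 154 ± 11.9, the coactivator Ncoa3 at 144 ± 6.53, the corepressor Ncor1 at 103 ± 4.32 and its partner Gps2 at 101 ± 4.10. Of 13 targets of the RXR partners, 9 were expressed, with the desaturase Scd1 at 509 ± 18.8, the lipogenic factor Srebf1 at 255 ± 22.6, Cpt1a at 45.9 ± 2.43 and the sterol exporter Abcg1 at 36.6 ± 2.79. Cyp24a1, the classical target of Vdr, had 0 counts, where 3 counts would give at most 0.0667 TPM. Over all 89 genes of the 7 lists, each counted once, 48 (53.9%) were expressed, with a median of 2.62 TPM, against 47.2% and a median of 0.691 TPM for all protein-coding genes.

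**Figure D3:**
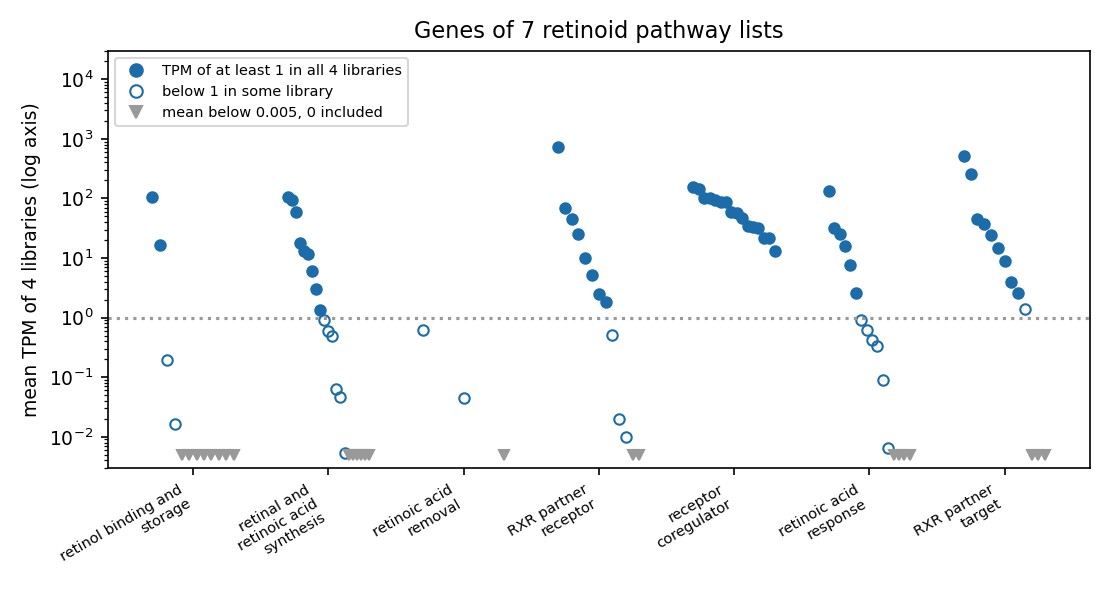
Mean TPM over 4 libraries (log axis) of the genes in 7 retinoid pathway lists, each list sorted from high to low. Filled circles are the expressed genes, open circles fell below 1 in some library, and grey triangles had a mean below 0.005. All 16 coregulators are filled, and none of the 3 genes of retinoic acid removal is.

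With 1 group, the only contrasts are those of each library against the other 3, which compare libraries and not conditions. Rxra was the only member called, higher in replicate 1 by 0.42 (SE 0.08) on the log2 scale with a Benjamini-Hochberg adjusted p of 0.045 in edgeR's quasi-likelihood test. Replicate 1 was above each of the other 3 libraries for Rxra, and replicates 1 and 2, its highest and lowest, were both libraries with high Xist. Every contrast set 1 library against libraries both high and low in Xist, and the part of sex in these differences was not tested. In that contrast 9 of 12917 genes tested (0.0697%) were called. Of the 10 members 7 passed the filter on low counts and were tested, and Rarb, Rxrg and Cyp26b1 were not. The median log2 difference of the members was 0.14, -0.05, -0.12 and 0.03 in replicates 1 to 4, with 5, 3, 2 and 5 of 7 above 0. Over all genes tested the medians lay between -0.00516 and -0.00105, and 48.4% to 49.7% of genes were above 0.

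The Rxra call held in 6 of 9 alternatives and was lost in 3. Apart from a second scaling method (RLE), the settings that kept it also called more genes of any kind than the main run. Their smaller adjusted p is thus not particular to Rxra. The adjusted p was 0.0085 with DESeq2 and 5.3e-05 in edgeR without the filter on low counts, and from 8.4e-08 to 0.0094 in edgeR when replicate 2, 3 or 4 was left out. With an offset that removed each library's trend with transcript GC content, added after seeing the data, the difference was 0.37 (SE 0.07) and the adjusted p was 0.105 in edgeR. Across 12896 genes the log2 difference of replicate 1 had a Spearman correlation of 0.14 with GC content, that of replicate 2 of -0.28, of replicate 3 of -0.07 and of replicate 4 of 0.22. The principal transcript of Rxra is 57.0% GC, more than in 85.6% of the genes tested, and those of Rara and Rxrb, at 59.2% and 61.4%, exceed 93.5% and 97.7%. The adjusted p was also 0.052 without scaling beyond library size and 0.116 when the 4 contrasts were adjusted together.

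The remaining 27 of 28 differences, 7 members in 4 contrasts, did not pass, with adjusted p in edgeR of 0.415 or more and log2 differences from -0.41 to 0.30. In replicate 1, Stra6 was higher by 0.20 (SE 0.08) and Rara by 0.18 (SE 0.08), with adjusted p of 0.415 and 0.469 in edgeR. Without replicate 4, Rara passed at 0.25 with an adjusted p of 0.029 in edgeR. In replicate 2, Rxra was lower, at -0.36 (SE 0.12) with an adjusted p of 0.639 in edgeR, while Rxrb differed by -0.09 (SE 0.07). Without the filter on low counts that Rxra difference had an adjusted p of 0.0056 in edgeR. The contrast of replicate 3 called 3 of 12917 genes (0.0232%), and those of replicates 2 and 4 called 0 (0%), with 876 and 322 genes at an unadjusted p under 0.05 in edgeR and 28 and 0 called by DESeq2. Of the 89 pathway genes 53 were tested and 0 were called in any of the 4 edgeR contrasts, and none by DESeq2. At an unadjusted p under 0.05 in edgeR there were 11, 4, 1 and 1 of them in replicates 1 to 4, or 20.8%, 7.55%, 1.89% and 1.89%. The shares over all genes tested were 9.31%, 6.78%, 2.31% and 2.49%. Without replicate 4, pathway genes that included Crebbp, Ncoa2 and Vdr were called in replicate 1. The 4 contrasts share their libraries, so their values are not independent of each other.

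**Figure D4:**
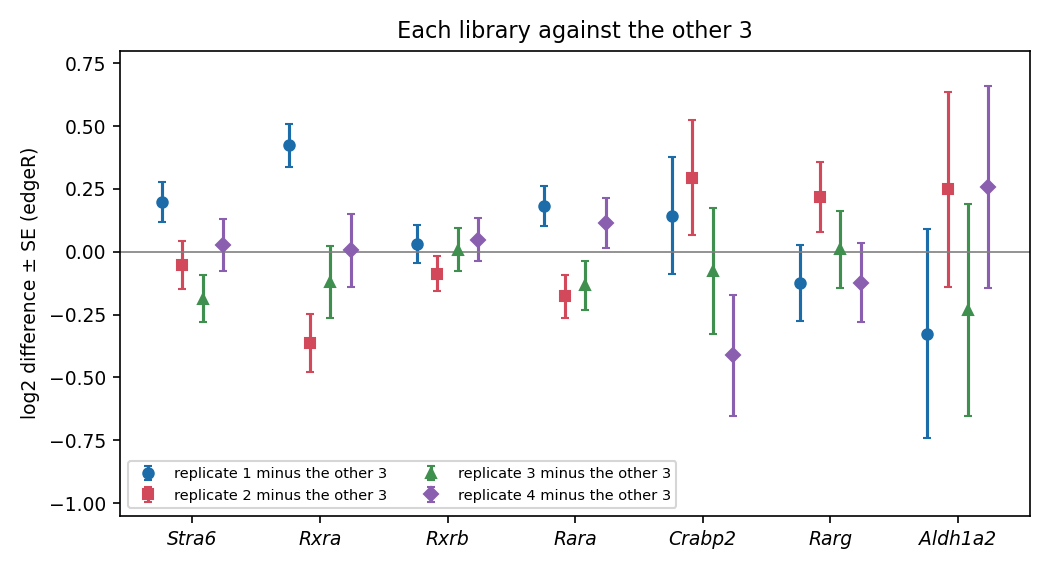
Log2 difference of each library from the other 3 (edgeR, error bars are SE) for the 7 members that passed the filter on low counts, with 1 point per replicate. Rxra in replicate 1, at 0.42, is the only difference with an adjusted p below 0.05, and the error bars widen towards the scarce Aldh1a2.

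The counts of the receptors were little exposed to related sequences. None of the 10 genes shared exon bases with another gene on either strand of the deposited annotation. No 50-base stretch of a Stra6, Rarb, Rarg, Rxra, Rxrb, Crabp2, Cyp26b1 or Aldh1a2 transcript occurred in a transcript of another gene of GENCODE M21, and 0.230% of those of Rara and 0.299% of those of Rxrg did.

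The 3 genes closest to Rxra in log2(TPM + 1) over the 4 libraries were the ribosome biogenesis factor Nol6 at 132 ± 16.3 TPM, Ncdn at 123 ± 12.3 and Atf6b at 124 ± 11.8, with root mean square differences of 0.10, 0.10 and 0.11.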

How the data were processed

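Total RNA libraries of 4 replicates were analysed from the counts deposited by the authors, whole numbers of fragments per gene. Per the file headers, featureCounts 1.4.6-p4 counted paired, reverse-stranded fragments in exons of GENCODE M13 on mm10 without requesting multi-mapping fragments. The labels name a polyadenylated RNA protocol. An aligner version was not given in the sources used here. Replicate numbers are those of the labels.

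TPM was computed from the counts and exon lengths. The 50376 of 50600 genes with a symbol in GENCODE M21 were matched by identifier, and the rest held at most 0.00963% of counts. Depth was 43821767 to 73819468 counts, and floors of 3 counts cover counting error only. Each library was tested against the other 3 with edgeR 4.0.16 (TMM, filterByExpr, quasi-likelihood, Benjamini-Hochberg at 0.05), the lone library assumed to vary like the rest, and with DESeq2 1.42.0 as an alternative. The edgeR step was tested on simulated data. Sequences are from RefSeq (GRCm38.p6).

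Members and lists were chosen with earlier results of these data known. Named genes are all members, the 4 most abundant of each list, each marker list's first and most abundant gene, and the 3 genes nearest in level to Stra6, Rxra and Rara. Others (such as Adgre1, Flt3, Rdh10, Dhrs3, Ccr9, Lrat and Cyp24a1) were named after their values were seen. Some genes under the rule are not reported here.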

Additional observations from a re-analysis of the deposited data

Results flagged for a closer look

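All members, pathway genes, marker genes and sex-linked genes with counts and the 8 receptor sums and ratios were checked, 113 quantities in all, for a library far from the other 3. In 14 the gap to the nearest library exceeded Dixon's critical share of the range for 4 libraries. Chance flags about 1 in 20, a rate that does not hold for genes with counts in a single library. Rdh11 was at 92.5, 92.2, 93.1 and 99.1 TPM in replicates 1 to 4, with a gap of 0.879 above in replicate 4. Tgm2, a transglutaminase induced by retinoic acid, was at 1.79, 2.95, 2.94 and 2.81 TPM, with a gap of 0.882 below in replicate 1. The coactivator Ncoa1 was at 14.6, 12.5, 12.3 and 12.7 TPM, with a gap of 0.851 above in replicate 1. Ctla4 was at 434, 484, 431 and 425 TPM, with a gap of 0.839 above in replicate 2. Cdh1 was at 0.485, 0.533, 0.555 and 0.929 TPM, with a gap of 0.841 above in replicate 4. The other 9 had counts in a single library, which fixes the gap at 1.0 whatever the count, so their flags carry no information. They were Rarres1 at 0.359, Cyp26c1 at 0.181, Cdh5 at 0.113 and Kdr at 0.00877 TPM in replicate 1, Nr1i3 at 0.0788 in replicate 2, Rbp7 at 0.0643, Itgax at 0.0385 and Aldh8a1 at 0.021 in replicate 3, and Ccr9 at 0.0259 in replicate 4. No member and no receptor ratio was apart in this way.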

How the results depend on the processing

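The order of the 7 expressed members was the same by principal transcript length. Between 6 and 7 members were expressed under every setting, 6 with an FPKM of at least 1 or a TPM of at least 5, and pathway genes numbered 40 to 50. In counts without division by length the RXR to RAR ratio was 2.46 and the Rxra share of the RXR sum 67.4%, and by principal transcript length that share was 52.6%. The calls depended on the settings, and the cause was not tested. Without the expression filter 105, 60, 35 and 16 genes were called for replicates 1 to 4, and DESeq2 called 16, 28 and 5 for replicates 1 to 3, against 9, 0, 3 and 0. Adjustment over the 4 contrasts together called 1 gene for replicate 2. Without 1 of the other replicates, genes called ranged from 23 (without replicate 3) to 341 (without replicate 4) for replicate 1, from 3 (without replicate 3) to 52 (without replicate 1) for replicate 2, from 16 (without replicate 1) to 21 (without replicate 4) for replicate 3 and from 2 (without replicates 1 or 2) to 9 (without replicate 3) for replicate 4. Members called in replicate 1 fell from 1 to 0 with no scaling, with GC offsets and with joint adjustment, and ranged from 1 to 2 with a replicate left out, Rara joining without replicate 4. Adjusted p for Rxra in replicate 1 ranged from 8.39e-08 to 0.116 over the alternatives in edgeR and DESeq2. In replicate 2, Rxra was called without the filter, 1 member, at -0.36. No paired analysis was possible because there is 1 group. At this depth Rarb, Rxrg and Cyp26b1 were not detectable above 3 counts.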
